A study of Mus musculus with 6 samples.

Results

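The culture-converted germline-derived pluripotent stem cells (gPSC) were described at the single genomic positions where both gPSC lines differed from a reference library in the same direction. A position was a member when the authors' tables listed it with the same sign of the methylation difference in gPSC 1 and in gPSC 2, and members within 1 bp of a listed position of the opposite sign were left out. This rule gave 69619 members among the 448072 positions listed in any of the study's tables. Of these, 67439 (96.9%) had higher methylation than the reference in both lines and are called hyper, and 2180 (3.13%) had lower methylation in both and are called hypo. The members were thus chosen by the deposited methylation differences of gPSC 1 and gPSC 2, so their sizes and counts are given as descriptions, without a test.

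The study measured cytosine methylation by reduced representation bisulfite sequencing, which digests the genome and reads its CpG-rich fragments, in 6 mouse cell lines grown in culture. All 6, the ESC included, are of strain OG2, in which regulatory sequence of Pou5f1 drives a green fluorescent transgene. The groups were GSC, germline stem cells that stand in culture for the spermatogonial stem cells of the testis (1 line); iPSC, pluripotent cells induced with introduced transcription factors (lines 1 and 2); gPSC (lines 1 and 2), which arise from germline stem cells in culture without introduced factors; and ESC, embryonic stem cells (1 line). The labels give no treatment, time or sex, and no clone or passage. Each library other than ESC has tables of positions above and below a reference that the tables do not name, taken here to be ESC, the only sample without tables. The question in the series title is whether factor-mediated reprogramming leaves an epigenetic memory of the starting cell.

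Values are methylation differences in percentage points, line minus reference, so 100 points is the largest possible difference and 0 means equal levels. The tables hold only positions that the authors called, with a q-value of at most 0.01 and a difference of at least 25 points. They give neither levels nor read depth, so the depth is unknown, and a position missing from a table may be unchanged or unmeasured. The smallest listed difference was 25 points. Among members just inside that limit, 1218 hyper and 103 hypo positions were under 30 points in both lines, and positions just outside it are not in the tables. All 5 libraries were set against the same reference, so their values at a position are not independent of each other. The gPSC label could not be checked against transcripts in methylation data, and the marker promoters that were measured are described further on.

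Most CpG sites of mammalian somatic and pluripotent cells are methylated, while CpG-dense promoters, the CpG islands, are usually free of methylation. A group of germ cell promoters is an exception, since these CpG-rich promoters gain methylation around implantation and are kept silent by it outside the germline. Imprinting control regions carry methylation on the copy from 1 parent only, set in the egg or in the sperm. In the male germline the maternal marks are erased and the paternal marks are established.

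The stretches below lie upstream of 8 gene starts and show what the members look like in sequence. They come from the RefSeq promoter table of GRCm38.p6, are written in the direction of the gene, and have the CpG dinucleotides that contain a member in capitals. The hypo stretches are those of Arl8a (chr1:135146745-135146833, plus strand), Mta1 (chr12:113098122-113098277, plus strand), Nmd3 (chr3:69721887-69722054, plus strand) and Cyb5r4 (chr9:87021975-87022028, plus strand). In this order they hold 9, 13, 7 and 7 hypo members, and 14, 33, 16 and 8 CpG dinucleotides. CpG islands were not marked in them.
Arl8a: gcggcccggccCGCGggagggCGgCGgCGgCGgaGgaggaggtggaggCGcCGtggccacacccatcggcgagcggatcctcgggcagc
Mta1: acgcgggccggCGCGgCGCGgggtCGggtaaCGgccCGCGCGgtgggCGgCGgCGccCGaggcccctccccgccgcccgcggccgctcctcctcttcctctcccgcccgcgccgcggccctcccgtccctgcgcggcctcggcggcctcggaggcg
Nmd3: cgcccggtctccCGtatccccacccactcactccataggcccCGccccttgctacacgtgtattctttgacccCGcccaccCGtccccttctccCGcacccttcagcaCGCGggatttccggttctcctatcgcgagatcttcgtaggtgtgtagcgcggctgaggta
Cyb5r4: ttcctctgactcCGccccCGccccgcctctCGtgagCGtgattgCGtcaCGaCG
The hyper stretches are those of Hormad1 (chr3:95559457-95559676, plus strand), Rpl39l (chr16:10170144-10170227, plus strand), Ctnnd1 (chr2:84658978-84659069, minus strand) and Efcab14 (chr4:115737858-115738072, plus strand). Of the germ cell promoters, Hormad1 shows 6 hyper members in a stretch with 17 CpG dinucleotides, while at Rpl39l 4 of the 5 CpG dinucleotides hold a member. Ctnnd1 and Efcab14 show dense hyper runs at other starts.
Hormad1: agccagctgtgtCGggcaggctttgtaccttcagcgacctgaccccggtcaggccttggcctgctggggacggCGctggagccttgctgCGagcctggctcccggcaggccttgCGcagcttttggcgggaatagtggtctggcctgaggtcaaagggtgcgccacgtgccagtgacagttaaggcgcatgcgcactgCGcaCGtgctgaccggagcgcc
Rpl39l: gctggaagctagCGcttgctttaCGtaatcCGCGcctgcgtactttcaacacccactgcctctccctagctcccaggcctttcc
Ctnnd1: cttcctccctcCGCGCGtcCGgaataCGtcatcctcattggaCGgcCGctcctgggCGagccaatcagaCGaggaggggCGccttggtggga
Efcab14: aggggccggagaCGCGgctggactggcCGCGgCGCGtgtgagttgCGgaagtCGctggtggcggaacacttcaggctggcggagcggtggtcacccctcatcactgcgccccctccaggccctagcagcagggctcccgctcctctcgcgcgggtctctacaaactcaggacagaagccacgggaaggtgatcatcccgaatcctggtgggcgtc
In the Arl8a stretch, 9 of the members fell on bases read as G, that is on cytosines of the opposite strand, and none on a C. 1 of these 9 is a G outside a CpG and stands as a lone capital. All 13 members of the Mta1 stretch also fell on a G, whereas all 7 of the Nmd3 stretch, all 7 of the Cyb5r4 stretch and all 8 of the Efcab14 stretch fell on a C. The Ctnnd1 stretch held both, with 7 members on a C and 3 on a G. CpG dinucleotides in lower case in these stretches held no member.

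The whole set was strongly one-sided. Hyper members made up 15.1% of all positions listed in any table, and hypo members 0.487%. They were 49.95% of the hyper positions of gPSC 1 and 48.5% of those of gPSC 2, against 7.37% and 10.6% of the hypo positions. The median hyper member stood 59.4 points above the reference in gPSC 1 (quartiles 44.1 and 76.3) and 57.6 points above it in gPSC 2 (quartiles 43.3 and 74.0). The median hypo member stood at -52.1 points in gPSC 1 (quartiles -69.0 and -37.4) and at -54.9 points in gPSC 2 (quartiles -70.0 and -40.4). A difference of 75 points or more in both lines was reached by 12914 hyper members (19.15%) and 279 hypo members (12.8%). Positions listed as hyper in 1 line only were smaller in median, 53.7 points for 63766 positions of gPSC 1 and 43.8 points for 67938 positions of gPSC 2. For hypo, the 23432 positions of gPSC 1 alone had a median of -45.1 and the 14317 of gPSC 2 alone a median of -40.3.

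The rule on neighbours acted very unequally on the 2 directions. Before it, 71224 positions were hyper and 6142 hypo in both lines, and 19 further positions were listed in both with opposite signs. It removed 3785 hyper positions (5.31%) and 3962 hypo positions (64.5%). In gPSC 1, 18102 pairs of listed positions stood 1 bp apart, the spacing of the 2 cytosines of a CpG on opposite strands, and 86.7% of them had opposite signs. In gPSC 2 there were 13946 such pairs, of which 79.3% had opposite signs. The 2 differences of an opposite pair summed to within 5 points of 0 in 83.4% of pairs in gPSC 1 and 86.2% in gPSC 2. The sources used here do not say whether reads of both strands were counted at each position. The hyper positions left out lay near gene starts, at a median distance of 689 bp, and so did the hypo positions left out, at 417.5 bp. Both member sets therefore describe the surroundings of gene starts only in part.

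Hyper and hypo members lay in different parts of the genome. The median distance to the nearest gene start was 27906 bp for hyper members, 660 bp for hypo members and 13225 bp for all positions listed in any table. Within 500 bp of a start lay 3.27% of hyper members, 46.3% of hypo members and 19.11% of all listed positions. More than 10000 bp away lay 74.05% of hyper members, 29.4% of hypo members and 54.8% of all listed positions. The deposited feature column named a promoter for 7.90% of hyper and 44.2% of hypo members, against 22.2% of all listed positions. Gene bodies held 54.6% of hyper and 77.1% of hypo members, against 67.2% of all listed positions. Hyper members near starts had smaller differences than those far away: their medians in gPSC 1 and gPSC 2 were 50 and 50.1 points within 500 bp of a start (2131 members) and 60.4 and 58.3 points beyond 10000 bp (48323 members). Hypo medians within 500 bp were -52.2 and -55.3, and beyond 10000 bp -52.1 and -54.6.

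**Figure D1:**
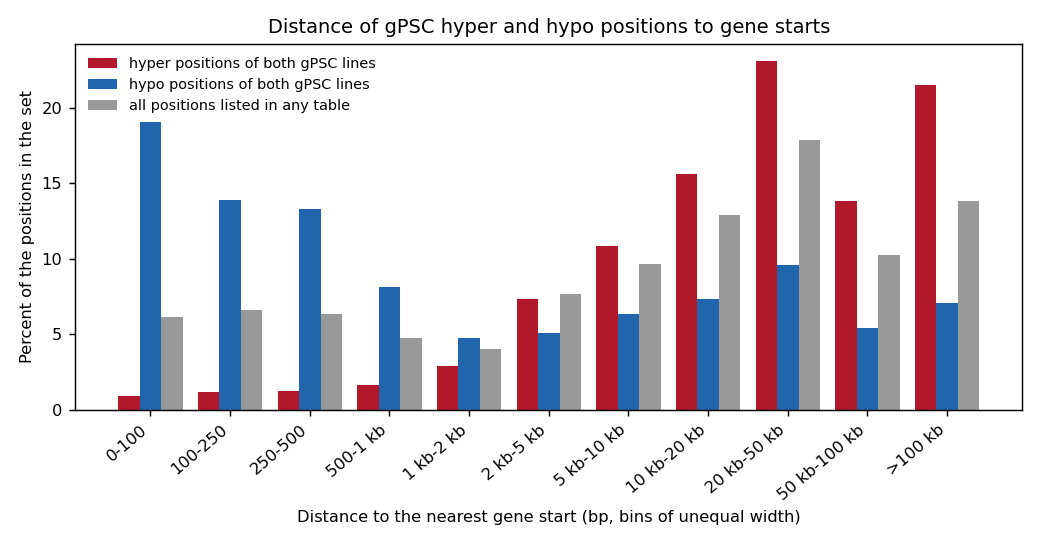
Distance from each position to the nearest gene start in base pairs (x axis, bins of unequal width) against the percent of each set in the bin (y axis), for hyper members, hypo members and all positions listed in any of the study's tables. Hypo members lie mostly close to starts, with 46.3% within 500 bp, and hyper members mostly far away, with 74.05% beyond 10000 bp.

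Across chromosomes the hyper members stood out on X and Y. On the autosomes, 14.7% of the positions listed in any table were hyper members, with a range of 9.49% to 17.8% over single chromosomes. On X the share was 27.6% (3390 of 12276 positions) and on Y 44.7% (233 of 521), both above the highest autosome. Hypo members were 0.489% of listed positions on the autosomes and 0.415% on X, and Y held 1. X held 4.17% of all hyper positions of gPSC 1 and 3.31% of those of gPSC 2, beside 3.28% in iPSC 1, 3.63% in iPSC 2 and 3.26% in GSC. The hyper listings of every single library also held an excess on X and Y. They are a different measure from positions hyper in both lines. Of the 12276 positions of X, gPSC 1 listed 5626 as hyper, gPSC 2 4602, iPSC 1 3877, iPSC 2 4772 and GSC 6912. Of the 521 of Y, they listed 368, 274, 203, 228 and 343. Of the 435185 on the autosomes, they listed 129003, 134286, 114155, 126547 and 204587, a lower share in each library. Positions hyper in both iPSC lines were not counted by chromosome. The median hyper member of X was 61.7 points in gPSC 1 and 60.1 in gPSC 2, and that of Y 68.7 and 70.5, against 59.3 and 57.5 on the autosomes. The labels do not give the sex of any line.

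**Figure D2:**
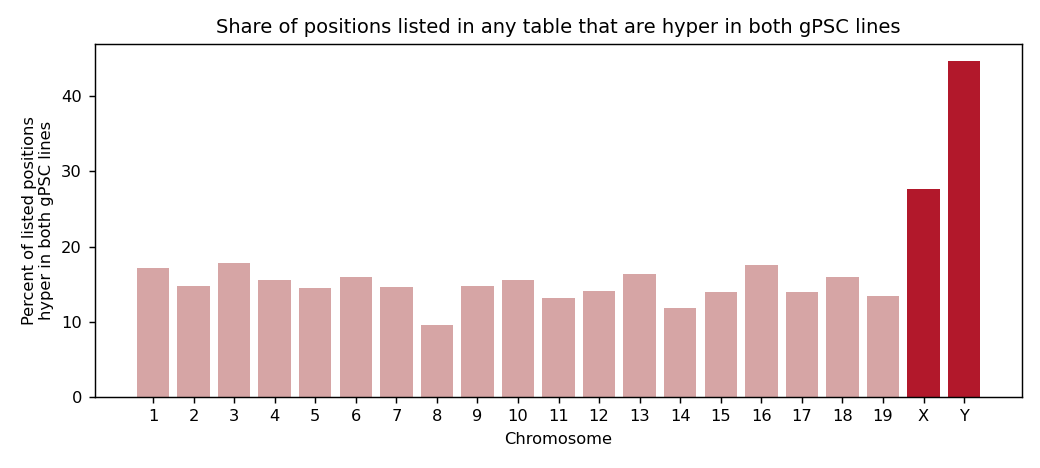
Percent of the positions listed in any table that are hyper members (y axis) for each chromosome (x axis), with X and Y in the darker colour. The autosomes range from 9.49% to 17.8%, X stands at 27.6% and Y at 44.7%.

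Promoters were examined next, as windows from 2000 bp upstream to 500 bp downstream of a gene start. A promoter was called when it held at least 3 members and at least 80% of its members had 1 direction. Of 8465 promoters with at least 3 positions listed in any table, 344 were called hyper (4.06%) and 46 hypo (0.543%), and 140 and 4 of these belong to predicted genes. The mean difference of a hyper promoter had a median of 51.9 points with a median SD between the 2 lines of 3.69, and that of a hypo promoter a median of -55.3 with a median SD of 0.703. Gene lists were drawn from textbook knowledge, but with earlier results of these data known, and were read against these shares. Germ cell genes had 6 hyper promoters of 19 assessed (31.6%), meiosis genes 3 of 13 (23.1%), pluripotency genes 1 of 6 (16.7%), spermatogonial stem cell genes 1 of 9 (11.1%) and lineage regulators 1 of 19 (5.26%). Genes of the DNA methylation machinery had 0 of 11. The median number of hyper members per assessed promoter was 1 for the germ cell list, and 0 for the meiosis list, as for all promoters assessed. No promoter of these lists was called hypo. The tables are the same that fixed the members, so the shares describe the lists and test nothing.

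The germ cell promoters called hyper were those of genes for RNA control, the piRNA pathway and testis-specific copies of housekeeping proteins. Dazl, an RNA-binding protein needed for germ cell development, had 7 hyper members at chr17:50293202-50293604. They ranged from 27.5 to 89.9 points in gPSC 1 and from 26.9 to 100 in gPSC 2, with means of 49.3 and 59.98 (54.6 ± 7.58, SD, n = 2 lines). The pair of members 193 and 204 bp downstream of the start was highest in both lines, and the pair at 356 and 418 bp was the lowest in gPSC 2. In the Dazl window, iPSC 1 had 8 hyper and 0 hypo positions, iPSC 2 had 8 and 3, and GSC had 6 and 14. Asz1, a germ granule protein of the piRNA pathway, had 5 hyper members with means of 47.0 and 41.1. Its window held 8 hyper positions in iPSC 1 and 3 in iPSC 2, none hypo, and 1 hyper and 3 hypo in GSC. Tdrd9, a helicase of the same pathway, had 3 hyper members with means of 53.1 and 64.7, and no position listed in GSC or iPSC 1. In iPSC 2 the Tdrd9 window held 3 hyper and 1 hypo position.

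Rpl39l, a testis-enriched copy of a ribosomal protein, had 5 hyper members, 4 of them in the stretch printed above. At these 4 positions the values were 61.0, 56.7, 62.1 and 51.3 points in gPSC 1 and 61.0, 62.1, 62.1 and 65.2 in gPSC 2, so the lines were equal at 2 of them. The Rpl39l window held 5 hyper positions in iPSC 1 and 9 in iPSC 2, none hypo, and 6 hyper and 6 hypo in GSC. Tuba3a and Tuba3b, testis alpha-tubulins, had 6 and 8 hyper members with means of 61.3 and 56.6, and of 49.5 and 51.1. These tubulin genes are close copies of each other, and the sources used here do not say how reads that match both were placed. In GSC the Tuba3a window held 0 hyper and 3 hypo positions, whereas the Tuba3b window held 3 hyper and none hypo. In iPSC 1 and iPSC 2 the Tuba3a window held 7 and 6 hyper positions, with 1 hypo in iPSC 1. The Tuba3b window held 8 hyper and none hypo in each iPSC line.

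The meiosis promoters called hyper all belong to proteins of the chromosome axis. Sycp3, a core protein of the axial element, showed the widest gap between the lines in this group. Its 8 members, 216 to 389 bp downstream of the start, ranged from 48.4 to 65.4 points in gPSC 1 and from 26.1 to 48.9 in gPSC 2. All 8 were higher in gPSC 1, with means of 58.1 and 35.0 (46.6 ± 16.3, SD, n = 2 lines). Sycp2, its partner in the axial element, had 4 members with means of 40.6 and 29.9, again all higher in gPSC 1. Hormad1, which marks unsynapsed axes, had 8 members with means of 54.6 and 51.8, of which 3 were higher in gPSC 1. Single Hormad1 positions moved far between the lines: the member 106 bp upstream was 31.6 in gPSC 1 and 65.2 in gPSC 2, and the member at -306 bp, the farthest upstream, was 86.4 and 59.1. The Hormad1 window in GSC held 2 hyper and 2 hypo positions, that of Sycp3 held 1 hyper position, and that of Sycp2 held none. In iPSC 1 and iPSC 2 the Hormad1 window held 14 and 12 hyper positions, with 5 hypo in iPSC 1. That of Sycp3 held 4 and 5 hyper and none hypo. That of Sycp2 held 3 and 2 hyper, with 1 hypo in iPSC 2.

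Over the 9 germ cell and meiosis promoters called, 54 members lay between -306 bp and 418 bp from the start. Downstream of the start lay 43 of them and upstream 11. Among germ cell genes below the call, Mael and Taf7l each had 2 hyper members, with means of 59.3 and 63.9 for Mael and of 37.7 and 43.8 for Taf7l. Tex19.1 had 1 hyper member (64.6 and 54.5 points), and Ddx4 had 1 hyper and 1 hypo member. Of the 19 germ cell promoters assessed, 7 held no member, and of the 13 meiosis promoters likewise 7.

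**Figure D3:**
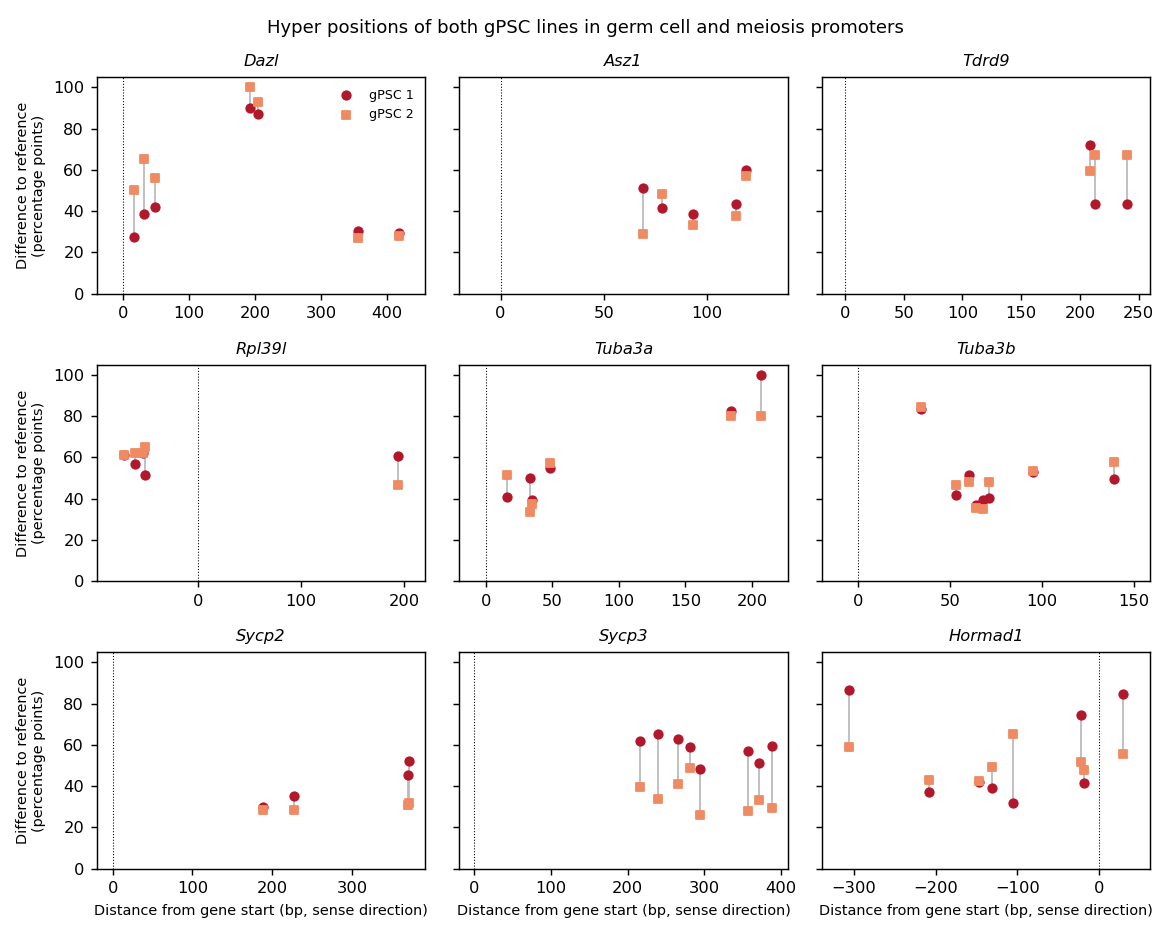
Methylation difference to the reference in percentage points (y axis) at each hyper member of the 9 germ cell and meiosis promoters called, against distance from the gene start in base pairs in the direction of the gene (x axis). Circles are gPSC 1, squares gPSC 2, each joined by a line at the same position, and the dotted line is the start. At Sycp3 all 8 circles lie above the squares, while at Tuba3b the lines nearly overlap.

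Sequence motifs known from germ cell promoters were counted in the windows from 250 bases before to 50 bases after each start in the RefSeq table. CACGTG, the core of an E-box and its own reverse complement, was present in 7.15% of all windows. Of the 9 germ cell and meiosis promoters called, 3 held it (Hormad1, Sycp3 and Tdrd9), as did 8.14% of all hyper and 10.9% of all hypo promoters called, against 8.09% of all genes. GGCGGGA on either strand, a form of the site bound by E2F factors, was in 11.3% of windows and 12.7% of genes. It was found in 3 of the 9 (Hormad1, Tuba3a and Tuba3b), in 14.2% of hyper promoters and in 28.3% of hypo promoters. The motifs can overlap by at most 1 base. A match is only a match of letters. The median number of CpG dinucleotides per window was 8 over all genes, 11 for hyper promoters, 28 for hypo promoters and 16 for the 9 germ cell and meiosis promoters.

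Other cell type genes gave single promoters. Pou5f1, the pluripotency factor whose regulatory sequence drives the OG2 reporter, had 7 hyper members at chr17:35506279-35508709, over all of its listed starts, with means of 48.9 and 48.7 (48.8 ± 0.10, SD, n = 2 lines). The transgene carries the same sequence, so reads of the reporter and of the gene cannot be told apart. The window held 13 hyper and 3 hypo positions in gPSC 1, 12 and 2 in gPSC 2, 8 and 5 in iPSC 1, 19 and 3 in iPSC 2, and 51 and 1 in GSC. The hyper counts of both gPSC lines were therefore between those of the iPSC lines and below that of GSC. Sohlh2, a transcription factor of differentiating spermatogonia, had 3 hyper members with means of 32.2 and 36.8. Its window held 7 hyper positions in iPSC 1 and 8 in iPSC 2, none hypo, and 2 hyper and 3 hypo in GSC. Neurog1, a neuronal transcription factor, had 4 hyper members, all between 61.8 and 69.2 points in both lines, beside 1 hypo member. Of 2 testis somatic promoters assessed, Lhcgr, the receptor for luteinizing hormone, had 3 hyper members (41.3 and 40.9). Neither of the 2 fibroblast promoters assessed nor the 1 of 2-cell genes was called.

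Dense runs of hypo members lay mostly at gene starts, although most hypo members were in no run. A region was a run of at least 5 members of 1 direction with neighbours at most 100 bp apart. There were 35 hypo regions with 280 members (12.8% of all hypo members), of which 27 lay in a promoter window and 26 within 500 bp of a start. Their median mean difference was -63.8 points, from -91.9 to -28.2. The lines were very close in them, with a median SD of 0.728 and an SD under 1 point in 19 regions. Where at least 3 members of a region could be read in the promoter table, all 16 hypo regions had them on 1 strand only, and so did 23 of 29 hyper regions.

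The hypo run with the most members lay at Arl8a, a small GTPase of lysosome transport, with 20 members at chr1:135146757-135146879, across the start and into the first part of the gene. Its mean was -48.3 points in gPSC 1, -47.3 in gPSC 2, -48.1 in iPSC 1, -48.5 in iPSC 2 and -48.2 in GSC. At these members the 5 libraries nearly coincided. The Arl8a promoter window also held 10 hyper positions in gPSC 1 and none in any other library. Ptprf, a receptor tyrosine phosphatase, had 19 members at chr4:118291339-118291434 with means of -82.1 in gPSC 1 and -81.9 in gPSC 2. The same positions had a mean of -81.6 in iPSC 1 and -74.7 in GSC and were unlisted in iPSC 2. Tent4b, a poly(A) polymerase, had 15 members (chr8:88199190-88199295) with -55.8 and -56.0 in the gPSC lines, -56.4 in both iPSC lines and -56.2 in GSC. Cyb5r4, a cytochrome b5 reductase, had 9 members (chr9:87021987-87022043) at -82.3 in both gPSC and both iPSC lines and -70.4 in GSC. With 1 shared reference, equal differences mean equal levels in the libraries. The level of the reference in these runs is not in the tables, so a difference that all libraries share cannot be assigned to the lines rather than to the reference library.

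Among the 12 hypo regions with the most members, that of Gkap1, which anchors cGMP-dependent kinase, was listed in the gPSC lines only. All 14 members at chr13:58273865-58273961 had the same value in both gPSC lines, with a mean of -68.3, and none was listed in iPSC 1, iPSC 2 or GSC. Since unlisted positions may be unmeasured, no difference from those libraries is shown by this. Smaller hypo regions at Slc4a4 and Mzt1 were likewise unlisted in the other libraries. Fam160b1 had 11 members (chr19:57360804-57360970) at -48.2 and -51.5, unlisted in iPSC 2 and GSC and with a mean of -53.2 at the listed ones in iPSC 1. Map4k2, a stress-pathway kinase, had the widest spread between libraries among the 12 hypo regions with the most members: its 11 members (chr19:6341126-6341204) were at -67.2 and -60.4 in the gPSC lines, -85.4 in iPSC 1 and -77.7 in GSC.

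The other hypo regions among the 12 with the most members were also at named genes. Mta1, a subunit of the NuRD chromatin complex, had 13 members at chr12:113098134-113098180, at -58.3 and -54.7. Rpl26, a ribosomal protein, had 11 members (chr11:68901634-68901708) at -52.6 and -53.7. Ppp2r2d, a regulatory subunit of phosphatase 2A, had 9 members at -44.6 and -46.5. Slc2a1, the glucose transporter GLUT1, had 9 members with the smallest difference of the 12, -28.3 and -28.1, just inside the limit of 25 points. Trmt61b, a mitochondrial tRNA methyltransferase, had 8 members at -36.8 and -37.1. None of the 12 contained positions 1 bp apart. At none of them did a listed iPSC or GSC position have the opposite sign.

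**Figure D4:**
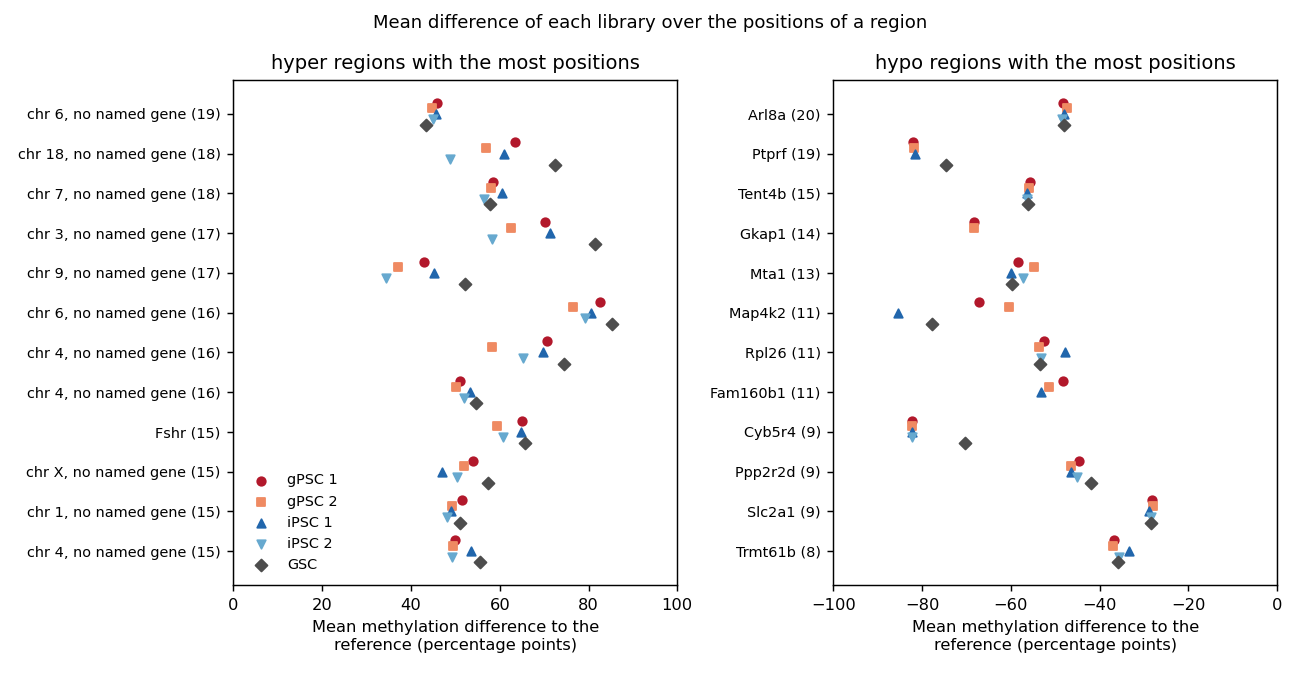
Mean methylation difference to the reference in percentage points (x axis) in each library over the members of the 12 hyper (left) and the 12 hypo regions (right) with the most members, named by gene or chromosome with the number of members in brackets (y axis). A missing symbol means that the library listed none of the positions. The gPSC lines nearly coincide in the hypo regions, Gkap1 has symbols for gPSC only, and GSC is the highest library in most hyper regions.

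Hyper regions were more numerous, and few of them lay at gene starts. There were 1276 with 8003 members (11.9% of hyper members), with a median of 6 positions over 120 bp. Neither a gene body nor a promoter window held 650 of them (50.9%), a body alone held 535, and 91 (7.13%) lay in a promoter window. The median distance to a start was 40686 bp. Their mean differences ran from 29.6 to 98.75 points with a median of 55.8, and the SD between the lines had a median of 2.70 and a maximum of 32.5. Of all hyper regions, 120 were on X and 13 on Y.

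Of the 12 hyper regions with the most members, 1 had a named gene, and 8 included positions 1 bp apart. They were 316 to 531 bp long, the means over both lines ran from 40.03 to 79.6 points, and the SD between the lines from 0.344 to 8.72. No listed iPSC or GSC position in them had the opposite sign, and every library listed some of their positions. The run with the most had 19 members at chr6:89695699-89696055, 15206 bp from the pheromone receptor gene Vmn1r40. Its mean was 45.8 in gPSC 1, 44.8 in gPSC 2, 45.6 in iPSC 1, 44.9 in iPSC 2 and 43.4 in GSC. Of its 19 members, 10 stood 1 bp from another member, so both cytosines of a CpG can be counted there. Over all hyper members, those with such a neighbour had a median of 37.7 points over both lines, against 59.1 without. The highest mean of the 12 was at chr6:7333065-7333394, with 82.7 and 76.5 in the gPSC lines, 80.5 and 79.2 in the iPSC lines and 85.2 in GSC. A run of 17 members at chr3:78338925-78339455, 71312 bp from the start of the predicted gene Gm36288, had 70.3 and 62.5 in the gPSC lines, 71.3 and 58.2 in the iPSC lines and 81.4 in GSC. Line 1 was above line 2 in both kinds of pluripotent line there. The run with a gene lay in the body of Fshr, the receptor for follicle-stimulating hormone that marks Sertoli cells in testis, with 15 members (chr17:89153888-89154274) at 65.0 and 59.5. The X chromosome run of 15 members (chrX:70072280-70072640) had 54.0 and 52.0, beside 47.1 and 50.3 in the iPSC lines and 57.3 in GSC.

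Hyper runs also lay at gene starts outside the lists. Ctnnd1, the p120 catenin of cell junctions, whose stretch is printed above, had at the members shown there means of 55.7 points in gPSC 1 and 62.0 in gPSC 2. All 13 members of the Ctnnd1 promoter window are also those of Btbd18, which starts close by on the opposite strand. The run cannot be assigned to 1 of these genes. Efcab14 had 8 members at chr4:115737870-115737910, with 66.0 in gPSC 1, 70.4 at every member in gPSC 2, and 73.4 in GSC. Both iPSC lines listed no position in the Efcab14 window. Promoters called in gPSC with no listing in either iPSC line numbered 6 hyper (1.74% of the 344 called) and 2 hypo (4.35% of 46). Among all 8465 promoters assessed, 15.3% had no position listed in either iPSC line, a larger share. The other hyper ones were Zfp266 (8 members, 45.0 and 47.6), Abl2, a tyrosine kinase (6 members, 31.3 and 28.0), Eif2s3y, a translation initiation factor on Y (42.1 and 51.4), Gjb2, the connexin 26 (76.5 and 63.6), and Igf2bp2, an RNA-binding protein (44.4 and 56.1). GSC listed no position in the Zfp266 and Eif2s3y windows. The 2 hypo ones, Plagl1 and its non-coding neighbour Hymai, share the same members.

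Windows reaching 5000 bp beyond the outermost starts on each side were searched for 21 maternally methylated imprinted genes. Genes with several starts therefore had longer windows, up to chr7:60000199-60455177 at Snrpn. Of these, 15 held a position listed in any table, and 8 of the 15 held no member. Plagl1, an imprinted zinc finger factor, had 3 hypo members at chr10:13090967-13090974, all at -39.7 points in gPSC 1 and at -71.9 in gPSC 2 (-55.8 ± 22.7, SD, n = 2 lines). This call was lost when opposite-sign neighbours up to 50 bp away were left out. Its window listed 3 hyper and 10 hypo positions in gPSC 1, 0 and 5 in gPSC 2, and none in either iPSC line or GSC. Of the hypo positions shared by the gPSC lines, 2 were left out for a neighbour of opposite sign. Inpp5f, a phosphoinositide phosphatase with an imprinted variant, had 10 hyper members at chr7:128611776-128611865 with 36.0 and 46.0. Its window was placed on the only start listed for the gene, chr7:128611365. No separate start of the imprinted variant was listed, so these members are not shown to lie in its imprinted region. That window listed 9 hyper positions in iPSC 1 with a mean of 31.0, and 0 hyper and 1 hypo position in iPSC 2.

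In the windows of the 3 paternally methylated loci all members were hyper, as were 96.9% of members genome-wide. The imprinting control regions, whose methylation is set in the male germline, were not marked within these wide windows. The members are therefore not shown to lie in a control region. Rasgrf1, a guanine nucleotide exchange factor, had 5 members at chr9:89885782-89886081, with 54.4 in gPSC 1 and 53.4 in gPSC 2. Its window listed hyper positions in every library, 3 in iPSC 1, 5 in iPSC 2 and 7 in GSC. Meg3, a non-coding RNA, had 3 members spread over chr12:109521640-109546074, with 70.2 and 50.6. H19, also a non-coding RNA, had 1 member at chr7:142581231-142581231, with 36.3 and 30.3, and its window listed 4 hyper positions in GSC, none in iPSC 1 and 2 in iPSC 2.

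Counted over gene bodies with 2000 bp on each side, the genes with the most hyper members were long ones. Camta1, a calmodulin-binding transcription activator (802 kb), had 65 hyper members, followed by Filip1 (59), Prdm16 (55), Casz1 (49), Wwox (45), Asic2 (44), Csmd2 (44), Mast4 (43), Gse1 (41) and Sox5 (40). Prdm16, Casz1 and Sox5 encode transcription factors of tissue differentiation. Filip1, which binds filamin, was the densest for its listed positions: its 59 were 49.2% of all its positions listed in any table, with means of 64.1 and 57.1 points. Casz1 had 17.0% and Camta1 18.9%, near the share of hyper members among all listed positions, and Gse1 had 9.32%. The 10 genes had means between 51.4 and 66.5 points in either line. Among hypo members, Arl8a and its neighbour Ptpn7 shared the same 20, and Ptprf had 19 hypo and 17 hyper members.

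The 2 gPSC lines were close at most members. A member had to be listed with the same sign in both lines, so this closeness is partly set by the rule. Hyper positions listed in 1 line only numbered 63766 in gPSC 1 and 67938 in gPSC 2, and hypo ones 23432 and 14317. The values below do not cover these. The median of gPSC 1 minus gPSC 2 was 0.795 points for hyper members (quartiles -4.62 and 7.13) and 1.26 for hypo members (quartiles -0.73 and 5.56). They were within 10 points of each other at 70.6% of hyper members and more than 25 points apart at 2509 hyper and 113 hypo members. Exactly equal values occurred at 1547 hyper (2.29%) and 318 hypo members (14.6%), and values within 1 point at 11.2% and 24.6%. The regions with the widest gaps were chosen after their values were seen. Ccna2, a cyclin of DNA replication, had 5 hyper members at chr3:36571937-36571967 with 76.7 points in gPSC 1 and 30.8 in gPSC 2, and 50 in both iPSC lines. Apold1 had 60.9 and 27.5 over 8 members, and Ccsap went the other way with 30.04 and 63.1 over 5. The widest hypo gap was 14.3 points, reached in opposite directions by 2 regions of 5 members. Slc4a4, a bicarbonate transporter, had -83.0 in gPSC 1 and -68.7 in gPSC 2, with no position listed in another library. Adgrb1, an adhesion receptor, had -75.3 in gPSC 1 and -89.5 in gPSC 2, beside -53.2 in GSC and none listed in the iPSC lines.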

How the data were processed

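DNA of 6 lines was profiled, 5 of them with tables. Per the submitters' processing notes, the tools were methylKit, Bismark, Bowtie2 and GATK, and the build was GRCm38 (mm10). The sources used here give no versions, settings, coverage minimums or strand handling. The authors deposited 10 tables of called positions with a p-value, a q-value and a methylation difference in percentage points; every q was at most 0.01 and every difference at least 25 points. No levels or depth are in them.

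Positions of both gPSC lines were matched on chromosome and position. Gene starts (27024 genes) came from a RefSeq promoter table of GRCm38.p6 and gene ends from its gene table. Promoters spanned 2000 bp upstream to 500 bp downstream of any listed start and needed 3 members, 80% of 1 direction. Regions needed 5 members at gaps of at most 100 bp. No test was made, since the rule used the same differences; SDs are over 2 lines, which show the spread between these lines only. Scripts were tested on simulated data (Python 3.11.15, pandas 2.3.3).

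Named were the 12 regions of each direction with the most members, the 10 genes with the most hyper and 5 with the most hypo members, every called promoter of a list (up to 8), every imprint window with 3 members and up to 6 promoters a direction unlisted in iPSC; of the 12 hyper regions, not all are described. Windows of maternally methylated genes reached 5000 bp beyond the outermost starts on each side. Those of paternal loci reached from 7000 bp (H19), 20000 bp (Meg3) and 40000 bp (Rasgrf1) before the first start to 1000 bp after the last. Textbook strands were used where no start was listed. The members and gene lists were chosen with earlier results of these data known.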

Additional observations from a re-analysis of the deposited data

How the results depend on the processing

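No paired analysis was possible because no result came from a test and each line has 1 value against the same reference. Of 54 recomputed values, 24 stayed within the limits set and 30 moved. Reversals were not looked for, since most of these values are counts. Requiring 50 points in both lines left 38518 hyper and 1099 hypo members, 100 hyper and 27 hypo promoters and 414 hyper regions. Requiring a q of at most 0.001 left 1204 hypo members, 227 hyper and 29 hypo promoters, and 821 hyper and 18 hypo regions. With no neighbours left out, there were 6142 hypo members, 97 hypo promoters and 88 hypo regions. Leaving out opposite signs up to 50 bp away kept 298 of the 344 hyper and 37 of the 46 hypo promoters and every list call except Plagl1. Windows of 500 bp to each side gave 228 hyper promoters, and a minimum of 5 members gave 133. A gap of 50 bp gave 638 hyper regions, and a minimum of 10 members gave 74 hyper and 8 hypo regions. With 1 line left out, so that a position needed 1 line only, hyper members numbered 120756 to 129258, hyper promoters 925 to 960, hyper regions 3004 to 3070, hypo members 10554 to 15324, hypo promoters 390 to 545 and hypo regions 325 to 376. The median difference between the lines ran from 0.639 to 1.01 points for hyper members under the alternatives, beside 0.795 in the main run. For hypo members it ran from 0 to 3.01 points, beside 1.26. These medians were counted as unchanged because the limit was the SD of the difference over single members. That limit is wide for a median. The cause of these changes was not tested beyond what each setting removes. Depth limits every value, since none can be given an interval.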
